A study of Mus musculus with 11 samples.

Results

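Ribosome assembly and nucleolar factors were followed as 58 genes chosen by symbol, and all 58 were found among the 24421 genes of the deposited count table. By role they comprise 3 core proteins of box C/D small nucleolar ribonucleoproteins (snoRNPs), 4 core proteins of box H/ACA snoRNPs, 7 subunits and initiation factors of RNA polymerase I, 8 nucleolar chaperones and regulators, 18 factors of small subunit assembly and 18 factors of large subunit assembly. They are spread over 19 chromosomes, with at most 7 on one, so they are not a single genomic cluster.

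Ribosomes are put together in the nucleolus. RNA polymerase I, brought to the ribosomal DNA by Ubtf and Rrn3, makes the ribosomal RNA precursor. Box C/D snoRNPs methylate that precursor, box H/ACA snoRNPs convert chosen uridines to pseudouridine, and a succession of GTPases, helicases, nucleases and scaffold proteins folds and cuts it into the small and the large subunit. In the fully grown mouse oocyte ribosomal RNA synthesis is shut down and the nucleolus is replaced by a compact nucleolus-like body, and functional nucleoli are rebuilt in the embryo after its genome is activated around the 2-cell stage.

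The 11 RNA-seq libraries fell into 4 groups: 2 of maternal knockout 2-cell embryos, 3 of control 2-cell embryos, 3 of knockout oocytes and 3 of control oocytes. Oocytes were mature ones, halted in metaphase II (MII), and were collected 20 hours after hCG from superovulated females over 8 weeks old, on a mixed C57BL/6J and 129/Sv background. Knockout females were Daxx f/f; Zp3-cre, in which Cre is driven by the promoter of the zona pellucida gene Zp3 and acts in growing oocytes, and control females were Daxx f/f without the transgene, so that every comparison of genotypes carries the transgene as well. The Daxx protein deposits histone H3.3 with Atrx. Embryos were made by in vitro fertilisation with sperm of JF1 males aged 8 weeks, cultured in KSOM and collected 33 hours after fertilisation. Embryos of knockout females lacked maternal Daxx and received a paternal allele (m-z+), and control embryos had both (m+z+). Each library pooled 50 oocytes or embryos, taken from 2 to 3 females. Of the maternal knockout embryos, replicates 2 and 3 were used, and replicate 1 was not analysed here.

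Embryo libraries held 17978192 to 25308468 counted reads and oocyte libraries 32582998 to 39798586, so 3 counts, the limit that a count of 0 allows, correspond to 0.119 to 0.167 CPM (counts scaled to a common library total of counted reads) in embryos and 0.0754 to 0.0921 CPM in oocytes. Daxx stood at 7.83 to 8.40 CPM in knockout oocytes against 86.2 to 97.2 CPM in control oocytes, and at 22.8 and 25.5 CPM in maternal knockout embryos against 35.2 to 46.7 CPM in control embryos. As a check of the labelled stages, all 10 oocyte markers were lower in control embryos than in control oocytes, and all 9 tested 2-cell markers were higher. In each control oocyte library 4 or 5 of these 9 had 0 reads. Such genes entered the test through their embryo counts alone, so they could only come out higher. The 15 granulosa and cumulus markers summed to 373 to 450 CPM in embryos and 95.02 to 105 CPM in oocytes, of which Nr5a2 alone held 226 to 310 CPM in embryos. Amhr2 had 38.2 to 52.2 CPM and Gja1 49.9 to 74.6 CPM in embryos, and both were at or below 0.0614 CPM in oocytes. Cyp19a1 went the other way, with 2.51 to 4.51 CPM in embryos and 17.2 to 19.5 CPM in oocytes, while Foxl2, Inha, Inhba and Ptx3 were at or below 0.217 CPM in every library. Leukocyte markers stayed at or below 7.92 CPM and erythroid markers at or below 0.707 CPM in every library. The 10 spermatid markers summed to 235 to 270 CPM in embryos and 199 to 220 CPM in oocytes. Of 6 spermatid markers tested between oocyte genotypes, 1 was called higher in knockout by edgeR (adjusted p = 0.0028), against 0.45% of all genes. Lars2, a gene that collects reads resembling ribosomal RNA, took 1.81% and 0.552% of the reads in maternal knockout embryos, 0.482%, 1.85% and 0.871% in control embryos and 0.142% to 0.201% in oocytes. The part of these markers, of Lars2 and of depth in the differences between stages was not tested. Embryos carry a JF1 paternal genome and oocytes do not, so stage and paternal genome cannot be told apart. CPM are shares of the counted reads, not amounts per oocyte or embryo, and fewer transcripts of a gene in each embryo cannot be told apart from more RNA of other genes.

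The transition from MII oocyte to 2-cell embryo changed most of these genes. In control libraries 43 of the 58 rose, 8 fell and 7 did not pass the edgeR quasi-likelihood test (adjusted p under 0.05). Over all 15577 genes tested, 43.1% rose and 40.0% fell, so changes between the stages were common in the whole table. Rises of at least 2-fold were seen for 32 of the genes, against 33.0% of all genes, and falls of that size for 5, against 28.5%. The median change was 1.21 on the log2 scale over the 58 genes and 0.07 over all genes. In libraries from knockout females, which share none with the control ones, 40 rose, 11 fell and 7 did not pass, with 42.5% of 16592 genes rising and 37.7% falling. Changes of at least 2-fold numbered 32 rises and 6 falls there, against 33.2% and 26.4% of all genes, and the median was 1.09 for the 58 genes and 0.09 for all genes. Called rises were common to both genotypes for 40 genes, against 40.3% of all genes tested in both, and called falls for 8, against 37.5%. None was called in opposite directions.

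**Figure D1:**
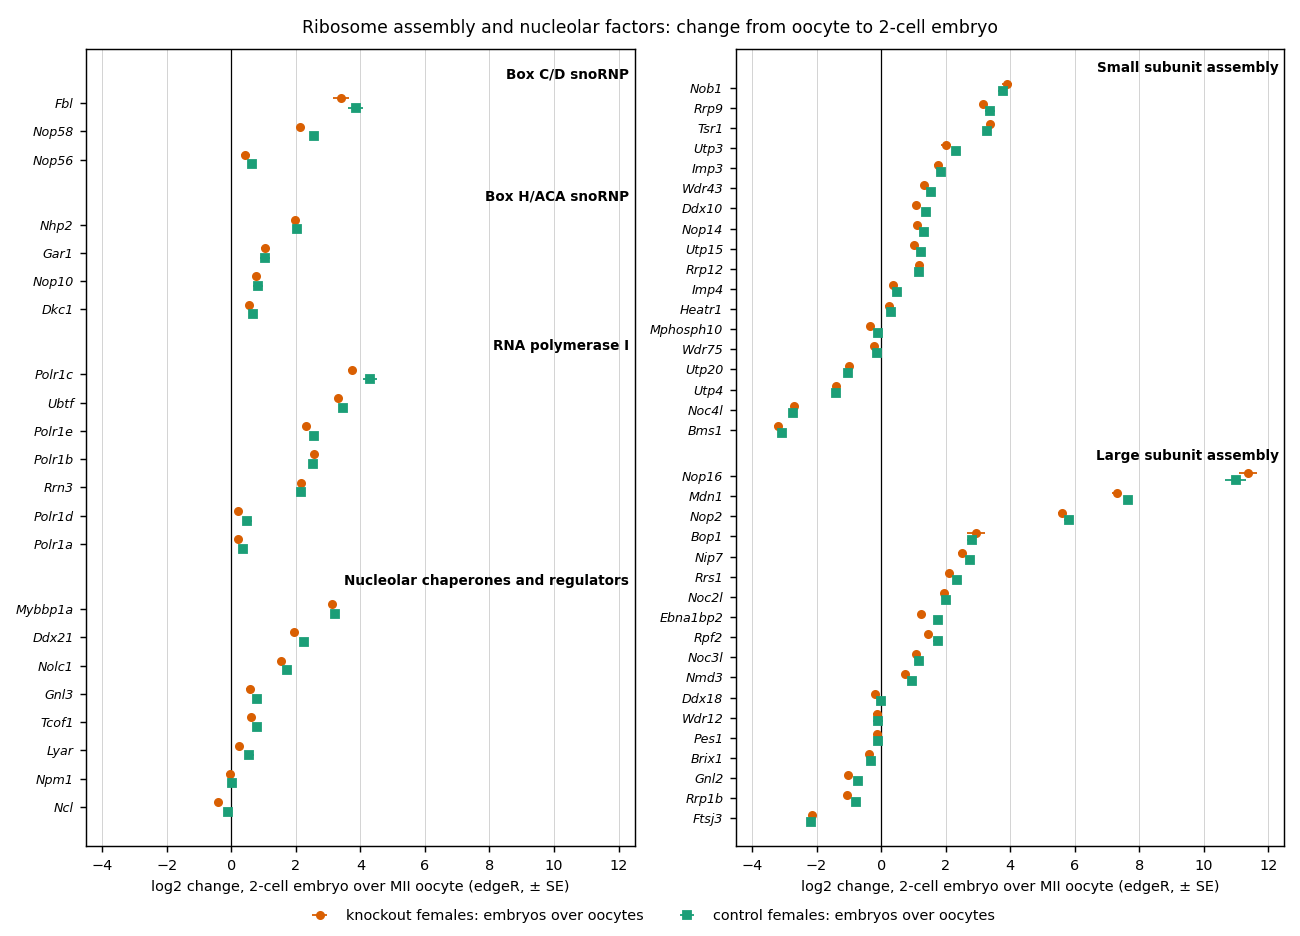
Log2 change from MII oocyte to 2-cell embryo (edgeR, ± SE) for the 58 genes in libraries from knockout females (circles) and control females (squares), by role. Most genes lie right of 0 in both; Bms1, Noc4l, Ftsj3, Utp4 and Utp20 lie furthest left, and Nop16, Mdn1 and Nop2 furthest right.

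Together the 58 genes took 9330 and 10005 CPM in maternal knockout embryos and 10812, 10169 and 11307 CPM in control embryos, against 6582, 6689 and 6481 CPM in knockout oocytes and 6625, 6734 and 6485 CPM in control oocytes. Every embryo library was above every oocyte library. The ratio of embryo to oocyte mean was 1.47 in the knockout and 1.63 in the control. The roles differed in this ratio. RNA polymerase I genes summed to 3.60 times the oocyte level in knockout and 3.76 times in control, and box C/D genes to 3.00 and 3.83 times. Single genes weighed heavily in these sums. In control embryos Rrn3 held 611 of the 1462 CPM of RNA polymerase I genes, and Nop58 429 of the 568 CPM of box C/D genes. Small subunit factors, by contrast, summed to 0.955 and 1.04 times the oocyte level, with large falls beside large rises in that group.

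**Figure D2:**
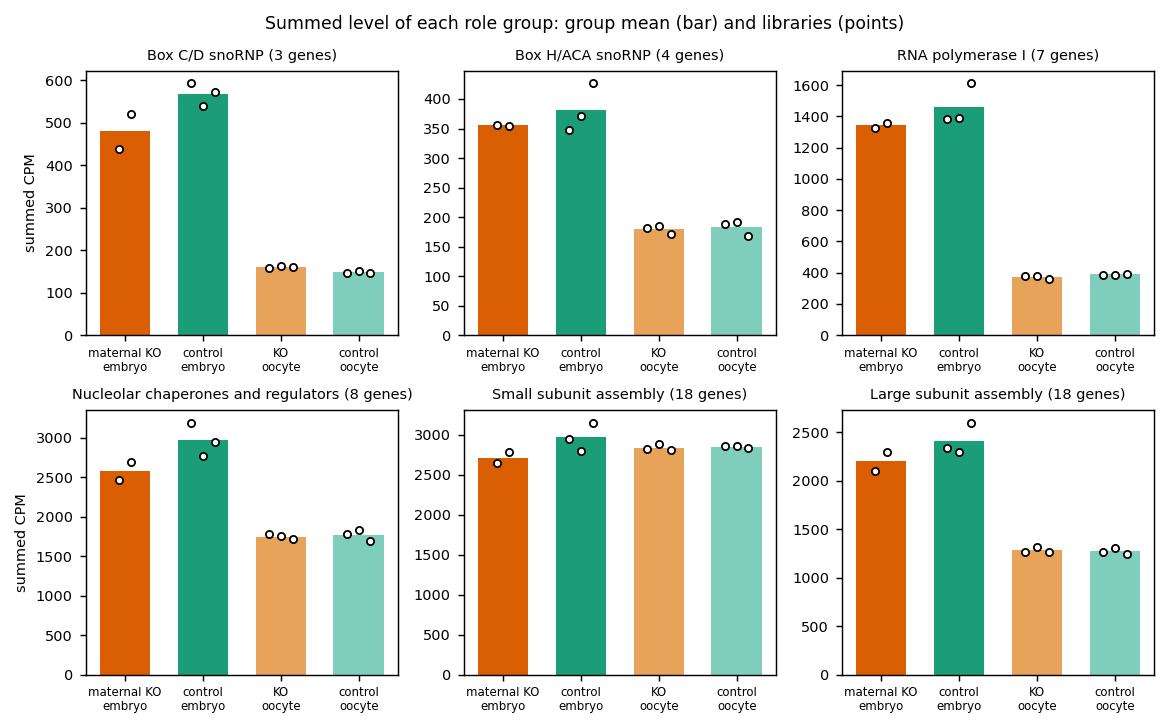
Summed CPM of each role group (bar, mean over libraries; points, libraries) in maternal knockout embryos, control embryos, knockout oocytes and control oocytes. Embryo libraries lie above oocyte libraries in 5 of the role groups; in small subunit assembly all libraries lie between 2645 and 3155 CPM.

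All 7 genes of the RNA polymerase I machinery rose in control embryos. Polr1c, a subunit shared by RNA polymerases I and III, had 58.6 and 59.2 CPM in maternal knockout embryos and 46.5, 60.2 and 72.4 CPM in control embryos, against 3.72, 4.73 and 4.34 CPM in knockout oocytes and 3.53, 3.27 and 2.19 CPM in control oocytes. Every embryo library was above every oocyte library. The log2 change was 3.74 ± 0.13 (SE) in knockout and 4.29 ± 0.21 in control libraries (edgeR adjusted p = 9.4e-09 and 3.3e-09). Ubtf, the factor that keeps ribosomal DNA open and recruits the polymerase, changed by 3.31 and 3.47. Rrn3, the initiation factor that makes the polymerase competent to start, had the highest level per length of the 7 in all 4 groups. It had 579 and 572 CPM in maternal knockout embryos and 634, 567 and 631 CPM in control embryos, against 125, 127 and 123 CPM in knockout oocytes and 136, 137 and 134 CPM in control oocytes. Its log2 change was 2.15 in each genotype. The second largest subunit gene Polr1b (2.57 in knockout and 2.53 in control) and the subunit gene Polr1e (2.32 and 2.57) moved by similar amounts. Polr1a, which encodes the largest subunit, and Polr1d, a subunit shared with RNA polymerase III, changed least. Polr1a gave 0.21 in knockout libraries (edgeR adjusted p = 0.11) and 0.37 in control libraries (adjusted p = 0.017), and Polr1d gave 0.21 (adjusted p = 0.081) and 0.49 (adjusted p = 0.0050).

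Among box C/D proteins, Fbl (fibrillarin, the methyltransferase) had 14.7 and 19.8 CPM in maternal knockout embryos and 13.3, 20.3 and 22.6 CPM in control embryos, against 1.55, 1.97 and 1.24 CPM in knockout oocytes and 1.17, 1.23 and 1.41 CPM in control oocytes. Embryos and oocytes did not overlap, and the log2 change was 3.40 ± 0.24 in knockout and 3.85 ± 0.23 in control libraries (edgeR adjusted p = 7.8e-07 and 1.8e-08). Its partners Nop58 and Nop56 form the scaffold of the particle. Nop58 had 328 and 372 CPM in maternal knockout embryos and 464, 409 and 414 CPM in control embryos, against 77.1, 78.0 and 77.7 CPM in knockout oocytes and 71.5, 73.5 and 69.8 CPM in control oocytes. Its log2 change of 2.13 in knockout and 2.56 in control exceeded that of Nop56, which was 0.43 and 0.65. The 4 box H/ACA genes rose in both genotypes. Nhp2, an RNA-binding core protein, changed by 1.97 and 2.03, Gar1 by 1.03 and 1.04, Nop10 by 0.76 and 0.82, and Dkc1 (dyskerin, the pseudouridine synthase) by 0.53 and 0.67.

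**Figure D3:**
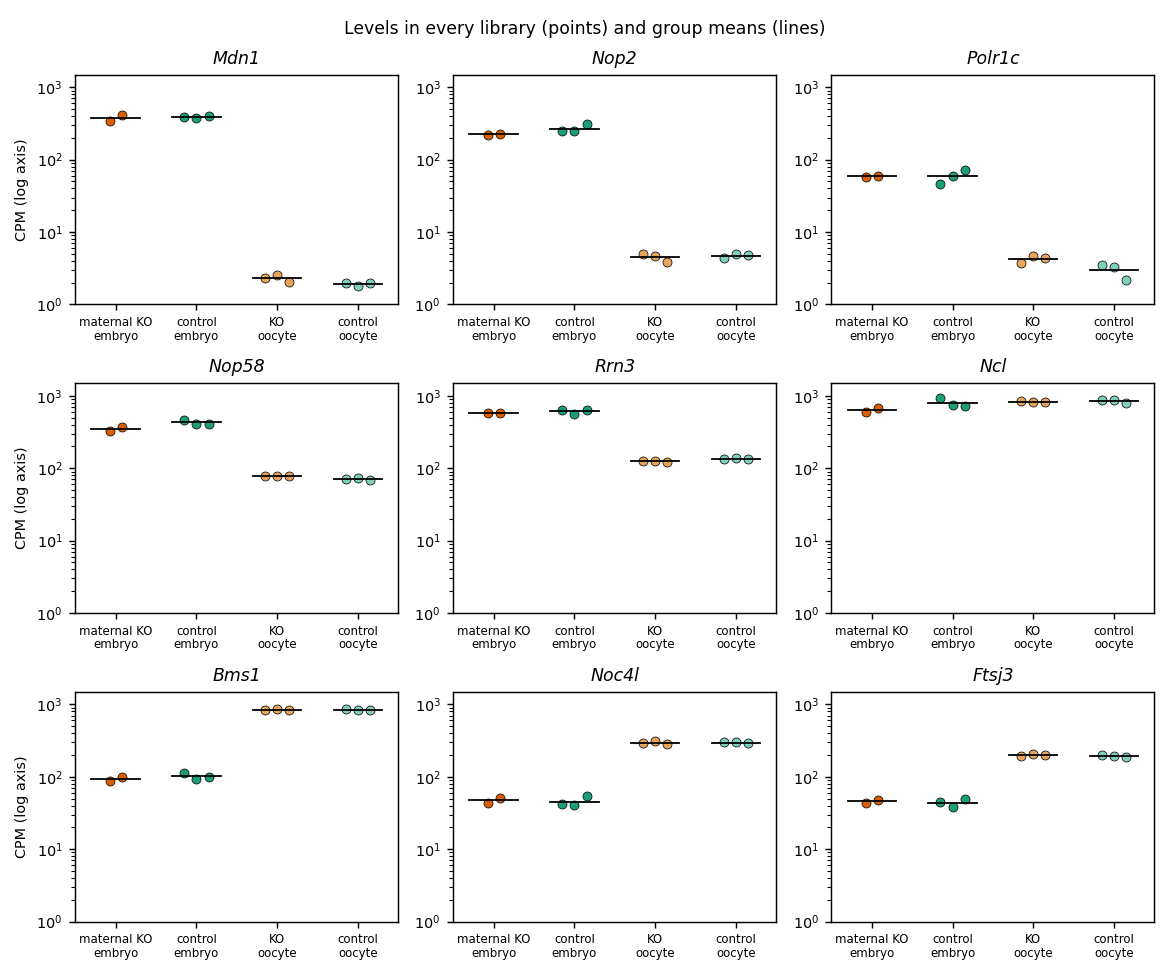
CPM of 9 genes in every library (points) with group means (lines), on a log axis, for maternal knockout embryos, control embryos, knockout oocytes and control oocytes. Mdn1, Nop2, Polr1c, Nop58 and Rrn3 are higher in all embryo libraries than in all oocyte libraries, Bms1, Noc4l and Ftsj3 are lower, and Ncl overlaps between control embryos and control oocytes.

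Of the 8 nucleolar chaperones and regulators, 6 rose and none fell in control libraries. Mybbp1a, a nucleolar protein that binds transcription factors, had 291 and 309 CPM in maternal knockout embryos and 296, 282 and 325 CPM in control embryos, against 32.4 to 34.4 CPM in knockout oocytes and 28.6 to 34.6 CPM in control oocytes, a log2 change of 3.12 and 3.22. The RNA helicase gene Ddx21 changed by 1.94 and 2.25 and Nolc1, a snoRNP chaperone, by 1.53 and 1.73. Tcof1, which works with Ubtf in ribosomal RNA transcription, changed by 0.60 and 0.78. Npm1 (nucleophosmin) and Ncl (nucleolin), textbook markers of the nucleolus, did not pass the test in control libraries. Ncl had 599.6 and 682 CPM in maternal knockout embryos and 921, 752 and 720.5 CPM in control embryos, against 841, 809.8 and 819 CPM in knockout oocytes and 864, 875 and 795 CPM in control oocytes. Control embryos and control oocytes overlapped, with a log2 change of -0.11 ± 0.11 (edgeR adjusted p = 0.37), while the knockout libraries did not overlap and gave -0.41 ± 0.09 (adjusted p = 0.0020). Without control embryo replicate 1, the highest of the embryo libraries, the change in control libraries was -0.24 (adjusted p = 0.010). Npm1 differed by -0.04 in knockout libraries and 0.02 in control libraries.

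Small subunit assembly held both directions, with 12 of 18 genes rising and 4 falling in control libraries, and 11 rising and 6 falling in knockout libraries. The fallers were headed by Bms1, the GTPase that acts in the early small subunit precursor. It had 87.9 and 100.2 CPM in maternal knockout embryos and 113, 92.3 and 97.9 CPM in control embryos, against 828, 867 and 835 CPM in knockout oocytes and 854, 839.8 and 831 CPM in control oocytes. Its embryo level was 10.8% of the oocyte level in knockout and 11.8% in control libraries, a log2 change of -3.21 ± 0.10 and -3.08 ± 0.10 (edgeR adjusted p = 5.0e-09 and 1.5e-10). In oocytes Bms1 had the highest level per length of all 58 genes.

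Noc4l, which in yeast pairs with the Nop14 protein in the small subunit precursor, fell to 43.7 and 50.6 CPM in maternal knockout embryos and 41.9, 40.8 and 53.4 CPM in control embryos, against 288, 313 and 287 CPM in knockout oocytes and 297, 301 and 292 CPM in control oocytes. No embryo library came near any oocyte library, and the log2 change was -2.70 in knockout and -2.73 in control. Utp4 and Utp20, both scaffold proteins of the precursor, changed by -1.40 and -0.99 in knockout and by -1.39 and -1.01 in control libraries. Rises in the same group were as large: Nob1, the nuclease that makes the final cut at the end of the small subunit RNA, changed by 3.90 in knockout and 3.77 in control, the GTPase-like factor Tsr1 by 3.37 and 3.29, and the U3 snoRNP protein Rrp9 by 3.15 and 3.37. In Tsr1, 32.3% of exon bases overlap those of Srr on the opposite strand, and the assignment of reads in such stretches is not stated in the sources used here.

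Large subunit assembly held the 3 largest rises. Mdn1 (midasin, a giant ATPase that strips assembly factors from the large subunit precursor; chromosome 4, 32657114 to 32775217 in GRCm38) had 343 and 414 CPM in maternal knockout embryos and 394, 379 and 404 CPM in control embryos, against 2.36, 2.55 and 2.04 CPM in knockout oocytes and 1.96, 1.78 and 1.98 CPM in control oocytes. Oocyte libraries were uniformly low and embryo libraries uniformly high, with a log2 change of 7.31 ± 0.14 in knockout and 7.66 ± 0.11 in control (edgeR adjusted p = 4.9e-10 and 2.2e-12). Nop2, a methyltransferase of the large subunit RNA, had 222 and 225 CPM in maternal knockout embryos and 246, 247 and 311 CPM in control embryos, against 4.92, 4.65 and 3.89 CPM in knockout oocytes and 4.36, 4.95 and 4.76 CPM in control oocytes. Its log2 change was 5.59 ± 0.11 and 5.81 ± 0.13 (edgeR adjusted p = 5.2e-10 and 1.2e-11).

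Nop16, a nucleolar protein of the large subunit precursor, was nearly absent from oocyte libraries. It had 1947 and 1830 reads in maternal knockout embryos and 1220, 1519 and 2410 reads in control embryos, against 2, 1 and 0 reads in knockout oocytes and 0, 3 and 1 reads in control oocytes. Scaled by library totals, the embryo to oocyte ratio was 3108 in knockout (exact 95% counting interval 1062 to 15076) and 2371 in control (925 to 8706). These intervals cover counting error only, and the gene entered the stage tests through its embryo counts alone. The other large subunit rises reached from 0.75 (Nmd3, the export adaptor of the large subunit) to 2.93 (Bop1) in knockout and from 0.96 (Nmd3) to 2.81 (Bop1) in control libraries.

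Falls in this group were led by Ftsj3, a methyltransferase-like factor. It had 43.9 and 48.0 CPM in maternal knockout embryos and 45.4, 38.2 and 48.5 CPM in control embryos, against 193, 203 and 199 CPM in knockout oocytes and 199, 195 and 187 CPM in control oocytes. Stages did not overlap, and the log2 change was -2.16 in both genotypes. Smaller falls were those of Rrp1b (-1.04 in knockout and -0.79 in control), the GTPase gene Gnl2 (-1.02 and -0.71) and the large subunit factor gene Brix1 (-0.37 and -0.33). Pes1, Wdr12 and Ddx18 passed the test in neither genotype, with changes between -0.19 and -0.02.

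Many of these proteins work as partners, and the levels of partner transcripts were compared as CPM per kilobase of the deposited gene width, since CPM alone favours long genes. Bms1 and Tsr1, related GTPase-fold factors of small subunit assembly, had 19.6 ± 1.8 and 49.9 ± 2.7 CPM per kb in maternal knockout embryos (SD, n = 2) and 21.1 ± 2.2 and 51.7 ± 7.4 in control embryos (n = 3), against 175.8 ± 4.3 and 4.67 ± 0.23 in knockout oocytes and 175.4 ± 2.5 and 5.17 ± 0.32 in control oocytes (n = 3 each). The order of the pair was thus turned round between stages. In oocytes Bms1 exceeded Tsr1 by 37.6 times in knockout and 33.9 times in control, and in embryos Tsr1 exceeded Bms1 by 2.55 times in maternal knockout and 2.45 times in control.

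The Nop14 and Noc4l pair was turned round likewise, with Noc4l ahead by 7.16 times in knockout and 7.34 times in control oocytes, and Nop14 ahead by 1.94 times in maternal knockout and 2.30 times in control embryos. Levels of the RNA polymerase I subunits Polr1a to Polr1e spanned 3.87 times in maternal knockout and 3.83 times in control embryos, against 8.82 and 13.2 times in knockout and control oocytes. For the box C/D core the span was 11.9 and 13.4 times in the 2 embryo groups and 30.3 and 35.2 times in the 2 oocyte groups, with Fbl lowest in all 4. With the length of the merged GENCODE exons in place of the deposited width, an alternative chosen after seeing the data, these 4 sets likewise narrowed in embryos or were turned round. For Noc2l and Noc3l, a heterodimer of the large subunit pathway, the length used decides the result. They differed by 1.02 times in each embryo group and by 1.86 and 1.75 times in knockout and control oocytes by deposited width, and by 1.89 and 1.97 times in the embryo groups and 1.04 and 1.10 times in the oocyte groups by exon length. Part of Noc2l, 20.9% of its exon bases, overlaps Samd11 on the opposite strand. The result for Mphosph10, Imp3 and Imp4 depended on the length as well. By deposited width they spanned 2.87 and 2.57 times in maternal knockout and control embryos, and 3.58 and 3.51 times in knockout and control oocytes. By exon length the spans were 10.6 and 9.52 times in the embryo groups and 8.10 and 7.93 times in the oocyte groups.

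Some partners lay further apart in embryos, by either length. Box H/ACA proteins spanned 5.05 and 4.46 times in maternal knockout and control embryos, and 3.79 and 3.19 times in knockout and control oocytes. Rpf2 and Rrs1, which deliver 5S ribosomal RNA to the large subunit in yeast, differed by 1.92 and 1.66 times in the embryo groups and 1.22 and 1.10 times in the oocyte groups. The trimer of Pes1, Bop1 and Wdr12 did not lie clearly further apart in embryos. It spanned 8.65 and 9.14 times in the embryo groups and 12.2 and 10.6 times in the oocyte groups by deposited width. By exon length it spanned 29.5 and 31.1 times against 29.5 and 31.3 times. In it, Bop1 stood at 30.8 ± 1.6 CPM per kb in maternal knockout embryos and 32.8 ± 5.7 in control embryos, against 3.91 ± 1.43 in knockout oocytes and 4.61 ± 0.18 in control oocytes, while Wdr12 stayed between 5.03 and 5.52 in all 4 groups. Over all 58 genes the median was 44.2 and 46.5 CPM per kb in maternal knockout and control embryos, against 24.4 and 24.5 in knockout and control oocytes. The deposited width was from 0.184 (Nop58) to 1.93 (Noc2l) times the length of the merged exons in GENCODE, and its making is not stated in the sources used here, so levels of different genes are compared only roughly.

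**Figure D4:**
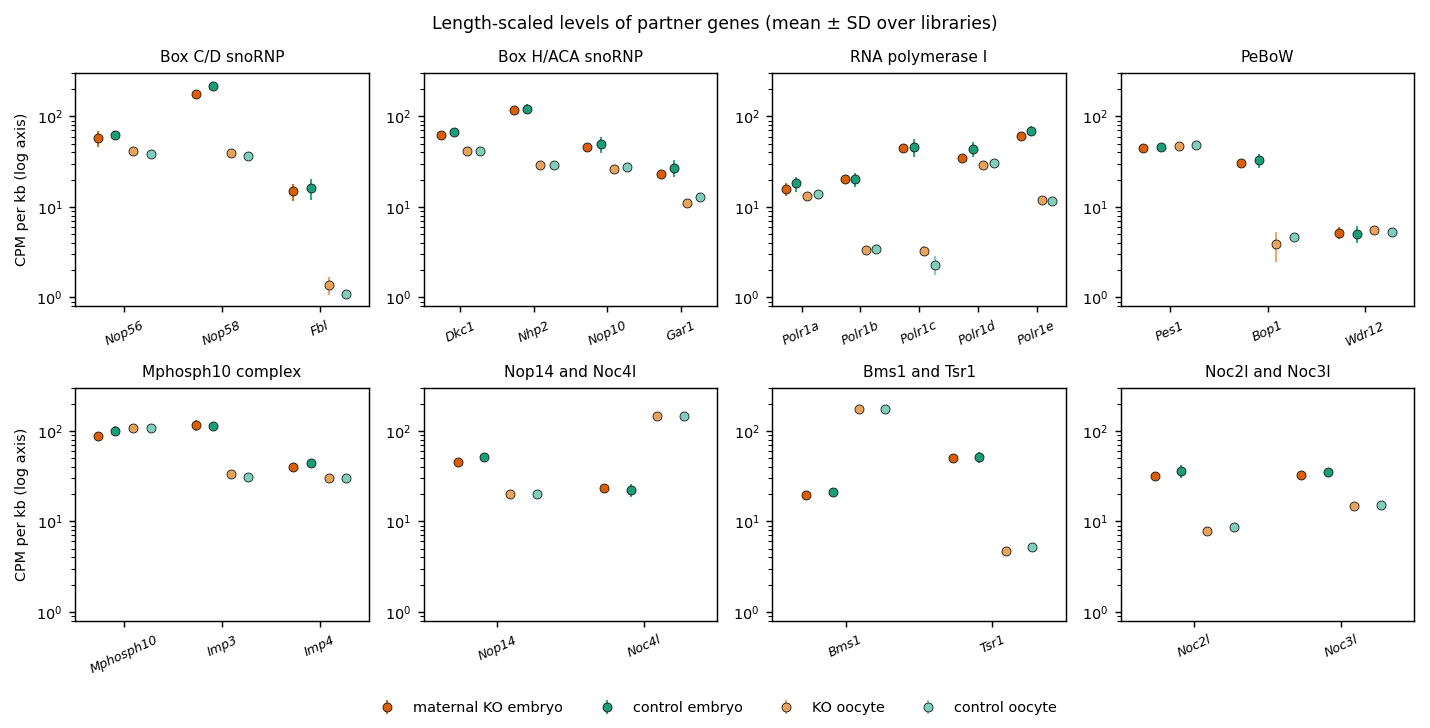
Mean CPM per kb of deposited width (± SD over libraries, log axis) for 8 sets of partner genes in maternal knockout embryos, control embryos, knockout oocytes and control oocytes. The order within the pairs Bms1 and Tsr1, and Nop14 and Noc4l, differs between embryos and oocytes, and Polr1b and Polr1c approach the other RNA polymerase I subunits in embryos.

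The effect of Daxx loss was examined first in oocytes. Of the 58 genes 57 could be tested, Nop16 being too low, and none passed the test by edgeR, DESeq2 or limma-voom. Over all 14235 genes tested, edgeR called 0.45% higher and 0.133% lower. At an unadjusted p under 0.05, 1 of the 57 was higher and 3 were lower, against 5.67% and 4.62% of all genes. The median log2 change was -0.02 over the 57 and 0.00 over all genes. Libraries did not overlap for 5 genes that were higher in knockout oocytes, against 10.1% of all genes, and for 3 that were lower, against 5.66%. Rrn3 had the smallest p. Its 3 knockout libraries, given above, lay below its 3 control libraries, and the log2 change was -0.13 ± 0.04 (edgeR adjusted p = 0.22). Gar1 had 14.4, 13.8 and 13.8 CPM in knockout oocytes and 16.8, 16.2 and 16.7 CPM in control oocytes, a log2 change of -0.26 ± 0.08 (adjusted p = 0.23). Changes of Polr1c (0.50 ± 0.19), Nob1 (-0.31 ± 0.14) and Tsr1 (-0.17 ± 0.08) likewise failed the correction, with edgeR adjusted p of 0.37, 0.47 and 0.53.

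In 2-cell embryos, where maternal Daxx was missing, again none of the 58 genes passed by edgeR, DESeq2 or limma-voom. Among all 15414 genes edgeR called 0.026% higher and 0.0% lower. At an unadjusted p under 0.05, 0 were higher and 6 were lower, against 2.08% and 1.11% of all genes. The fitted changes were small and mostly of one sign: 52 of 58 were below 0, against 49.6% of all genes, with a median of -0.14 against 0.00 over all genes. Each change had an SE between 0.132 and 0.235, about as large as that median. Levels did not overlap for 14 genes that were lower in maternal knockout embryos, against 6.38% of all genes, and for none that was higher, against 11.4%.

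Ebna1bp2, a large subunit factor on chromosome 4 (118620799 to 118627776 in GRCm38), had the smallest p. It had 90.5 and 107 CPM in maternal knockout embryos, against 143, 139.8 and 135 CPM in control embryos. The groups did not overlap, and the log2 change was -0.53 ± 0.15 (edgeR adjusted p = 1.00). Over 12 alternatives its adjusted p ranged from 0.071 to 1.00. Next by p were the helicase gene Ddx10 (-0.34 ± 0.14), Nop58 (-0.33 ± 0.14), Ncl (-0.35 ± 0.15), Polr1d (-0.37 ± 0.17), Nop2 (-0.29 ± 0.14), Ddx21 (-0.31 ± 0.15) and the small subunit factor gene Wdr43 (-0.27 ± 0.13), all with an edgeR adjusted p of 1.00. Ddx10 had 77.6 and 77.1 CPM in maternal knockout embryos and 94.3, 91.9 and 101 CPM in control embryos, which did not overlap.

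The size of this shift depended on the libraries. Without maternal knockout replicate 3 the median change of the 58 genes was -0.25, and over the 5 ways of leaving out 1 library it ranged from -0.25 to -0.06. Set against single libraries, the median over the 58 genes was -0.30 for maternal knockout replicate 2 against control replicate 3, and -0.01 for maternal knockout replicate 3 against control replicate 1. Over all genes tested, the medians of these pairs were 0.02 and 0.03. Control embryos also differed among themselves. Against the mean of control embryos, the median was -0.05, -0.08 and 0.13 in control replicates 1, 2 and 3. It was -0.17 and -0.06 in maternal knockout replicates 2 and 3, so by CPM alone replicate 3 lay within the control range. Over all genes tested, this median was -0.03, -0.02 and 0.06 in control replicates 1, 2 and 3. In maternal knockout replicates 2 and 3 it was 0.09 and 0.002. The medians of the 58 genes are not corrected for these. Beside this shift, the 10 oocyte markers all had fitted changes above 0 in maternal knockout embryos, summing to 2144 and 2170 CPM there and to 1701, 1989 and 1658 CPM in control embryos. Their part in the result was not tested. The 9 markers of the 2-cell stage summed to 871 and 966 CPM in maternal knockout embryos and to 869, 1048 and 723 CPM in control embryos, which overlapped.

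**Figure D5:**
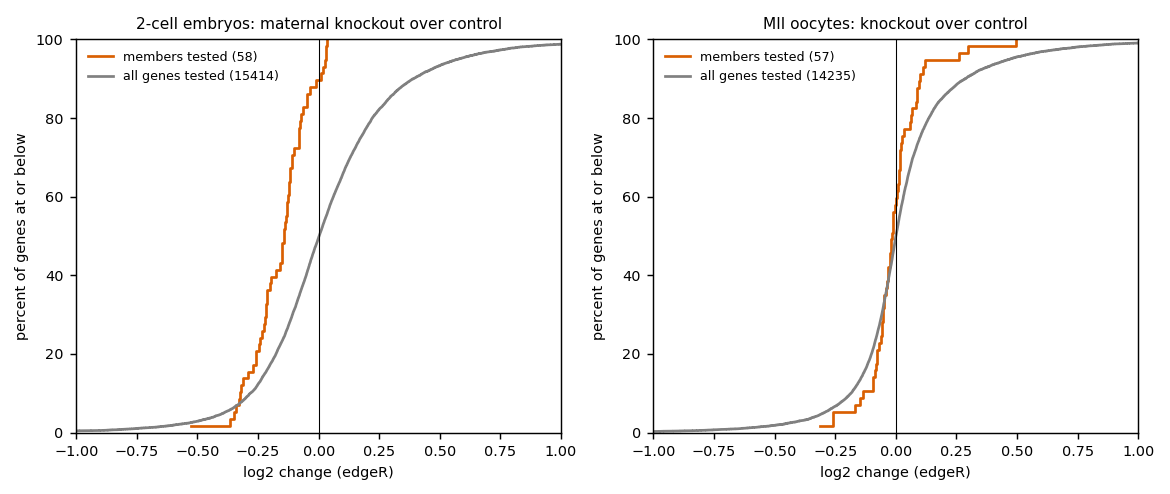
Cumulative share of genes (percent) by log2 change of knockout over control, for the assembly factors tested and for all genes tested, in 2-cell embryos (left) and MII oocytes (right). In embryos the factors' curve lies left of 0 for 52 of 58 genes; in oocytes it crosses the curve of all genes near 0.

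Whether the oocyte-to-embryo change differed between genotypes was tested directly, as the difference of the genotype effects at the 2 stages over all 11 libraries. None of the 58 genes passed by edgeR, DESeq2 or limma-voom, with 0.0118% of 17018 genes called higher and 0.0% lower by edgeR. At an unadjusted p under 0.05, 5 genes were lower (Ebna1bp2, Nop58, Ddx10, Polr1c and Mdn1), and 2.88% of all genes were lower at that level. The largest differences were those of Polr1c (-0.56 ± 0.26), Ebna1bp2 (-0.53 ± 0.14), Fbl (-0.46 ± 0.34), Nop58 (-0.44 ± 0.12) and Mdn1 (-0.35 ± 0.17), with edgeR adjusted p between 0.91 and 0.94. Of the 58 differences 48 were below 0, against 50.9% of all genes, with a median of -0.17 against -0.01. The difference contains the same embryo libraries as the comparison of embryo genotypes, so this count is not independent of the one given there. Polr1a, Polr1d and Heatr1 passed the stage test in control libraries and missed it in knockout ones, and Ncl, Wdr75 and Mphosph10 the other way round, but none of these 6 passed the test of the difference (adjusted p between 0.91 and 1.00).

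Further genes of the same pathways were read from the same tests. In control libraries 31 of 45 further small subunit factors rose and 5 fell (median log2 change 1.02), and 31 of 43 further large subunit factors rose and 8 fell (0.77). Of 13 further RNA polymerase I genes 10 rose and 3 fell (2.20), of 9 snoRNP assembly factors tested 7 rose and 2 fell (1.70), and of 17 genes of the exosome and of ribosomal RNA trimming 9 rose and 5 fell (0.44). Each list held both directions, and over all 15577 genes tested 43.1% rose and 40.0% fell.

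Among further small subunit factors the scaffold gene Nol11 (log2 change 7.35) and Utp23 (7.12) had the largest rises in control libraries. Utp23 was near the detection limit in oocytes, with 0.35 ± 0.18 CPM in control oocytes against 49.4 ± 8.7 CPM in control embryos. Riok1 (-2.92), a late kinase, and Nat10 (-0.85), an RNA acetyltransferase, had the largest falls. In the large subunit list Zfp622 and Mak16 had the largest fitted rises (11.46 and 9.08). Both were near the detection limit in oocytes: Zfp622 had 4791, 6134 and 6988 reads in control embryos against 4, 3 and 4 reads in control oocytes, and Mak16 had 4880, 4280 and 5196 reads against 11, 16 and 21. Zfp622 entered the stage test of control libraries through its embryo counts alone. Efl1 (-2.16), a GTPase that releases a factor from the large subunit, and Tex10 (-1.06) had the largest falls there. For RNA polymerase I these were Ttf1 (5.74), the transcription terminator, and the shared subunit gene Polr2h (4.23), with falls of Taf1a (-1.25) and Taf1b (-0.71), both of the promoter selectivity factor. In the exosome and trimming list the nuclease gene Isg20l2 changed by 8.72, with 2512, 2438 and 3896 reads in control embryos against 9, 18 and 10 in control oocytes, and the exosome cofactor gene C1d by 6.01, while the nuclease gene Eri1 (-1.67) and the exosome subunit gene Exosc1 (-1.17) fell. Of the snoRNP assembly genes Ruvbl1 (4.29) and Znhit3 (3.93) had the largest rises and Ruvbl2 (-2.43) and Pih1d1 (-0.67) the only called falls. The paired ATPases Ruvbl1 and Ruvbl2, which form a single ring complex, changed in opposite directions. Their CPM lay closer together in embryos than in oocytes. Ruvbl1 had 24.8 ± 2.3 CPM in maternal knockout embryos and 28.5 ± 5.7 CPM in control embryos. In knockout and control oocytes it had 1.40 ± 0.23 and 1.42 ± 0.10 CPM. Ruvbl2 had 21.2 ± 0.3 and 21.02 ± 3.23 CPM in the embryo groups, against 110.7 ± 4.9 and 111.3 ± 6.2 CPM in the oocyte groups. Cytosolic ribosomal proteins are what these factors assemble with the ribosomal RNA. Of 85 genes with symbols of that family, 67 rose and 9 fell in control embryos (median 1.5), against 43.1% and 40.0% of all genes. The 85 were taken by symbol and include Rps4l, which is annotated as a transcribed pseudogene. Rpl10l (6.24) had the largest rise among those with reads in every control oocyte library, and Rpl3l had 132, 146 and 219 reads in control embryos against 0 reads in each control oocyte library. Rpl3l likewise entered that test through its embryo counts alone. Rpl32 (-1.23) and Rpl36 (-1.19) had the largest falls, and how reads shared with copies of ribosomal protein genes were assigned is not stated in the sources used here.

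In maternal knockout against control embryos 0 of those 85 passed by edgeR, DESeq2 or limma-voom, with 0 higher and 4 lower at an unadjusted p under 0.05, against 2.08% and 1.11% of all genes. The lists nearest to the 58 genes held mostly negative changes as well, against 49.6% of all genes below 0. Fitted changes were below 0 for 74 of the 85 genes with ribosomal protein symbols (median -0.20), 42 of 45 further small subunit factors (-0.17) and 40 of 43 further large subunit factors (-0.16).

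Promoter sequence was read from RefSeq windows on GRCm38.p6, from 250 bases before to 50 after each annotated start, which were given for 51 of the 58 genes (Bop1, Fbl, Gnl2, Npm1, Rrp12, Rrs1 and Tcof1 were not matched). For 43 of these 51 genes, a stretch of bases after the start was found in a GENCODE transcript of the gene. The shares below cover all 51. Motifs were sought on both strands as exact letters. CACGTG, the E-box bound by Myc and Usf proteins, was found in 12 of 51 genes (23.5%), against 8.91% of 17491 protein-coding genes. CCGGAAG, the core of Ets family sites, was found in 20 of 51 (39.2%), against 12.9%, and TATAAA in 2 of 51 (3.92%), against 14.8%. Among genes that rose in control embryos, 9 of 38 held CACGTG (23.7%) and 16 of 38 held CCGGAAG (42.1%), and among those that fell 2 of 7 (28.6%) and 3 of 7 (42.9%) did. The 130 bases before a start are shown for 2 genes that rose (Nop2, Polr1c) and 2 that fell (Bms1, Utp4), all of which hold CCGGAAG. Capitals mark CACGTG and CCGGAAG or its reverse complement CTTCCGG, and each sequence runs 5′ to 3′ on the gene's strand. Nop2 is from chr6:125131753-125131882 (plus strand), Polr1c from chr17:46248046-46248175 (minus), Bms1 from chr6:118419418-118419547 (minus) and Utp4 from chr8:106893510-106893639 (plus). The start used for Bms1 lies inside the gene as annotated (chromosome 6, 118383381 to 118419802).
Nop2: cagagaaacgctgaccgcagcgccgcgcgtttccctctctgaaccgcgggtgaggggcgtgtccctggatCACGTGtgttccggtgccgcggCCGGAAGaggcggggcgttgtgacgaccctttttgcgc
Polr1c: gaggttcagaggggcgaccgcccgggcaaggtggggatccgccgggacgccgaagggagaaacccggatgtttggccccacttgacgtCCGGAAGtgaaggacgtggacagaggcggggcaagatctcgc
Bms1: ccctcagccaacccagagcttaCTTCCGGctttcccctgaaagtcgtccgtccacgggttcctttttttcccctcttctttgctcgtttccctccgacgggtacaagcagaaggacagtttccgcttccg
Utp4: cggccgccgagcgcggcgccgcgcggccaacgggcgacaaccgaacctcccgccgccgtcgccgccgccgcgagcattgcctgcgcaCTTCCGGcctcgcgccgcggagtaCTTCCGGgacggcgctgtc

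Nop2, with the largest rise of these 4, holds both motifs, and Utp4, which fell in both genotypes, holds CCGGAAG at 2 places, both on the opposite strand. A match is a run of letters in a window and says nothing of binding.

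Gene structure bears on some of the counts. Of the 58 genes, 6 hold small nucleolar RNA genes of the table within their span, 12 in all (Nop56, Nop58, Ncl, Gnl3, Wdr43 and Tsr1), and 13 share exon bases with another gene, all on the opposite strand, of which Tsr1 and Noc2l share over 10%. Fbl has an intronless copy, Fbll1, which had 63 and 16 reads in maternal knockout embryos and 29, 12 and 25 reads in control embryos, against 0, 0 and 1 reads in knockout oocytes and 0 reads in each control oocyte library.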

How the data were processed

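Read counts per gene were analysed for 11 libraries, which the labels' protocols describe as total RNA prepared with NuGEN's SoLo kit. The authors deposited whole-number counts, with no further normalization visible in the values, and a width per gene. The submitters' processing notes name STAR 2.5.0a, SAMtools and the build GRCm38 (mm10). Which program counted the reads, how strand and shared reads were treated and how the width was made is not stated in the sources used here. Of the deposited identifiers, 24387 matched a symbol in a RefSeq table of GRCm38.p6 and 34 did not. Total counts were 17978192 to 39798586 per library. The libraries were amplified by PCR, so floors of 3 counts and 95% intervals cover counting error only.

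Groups follow the labels for genotype and stage, with each pool of 50 as 1 replicate, and no pair of libraries agreed within sampling noise. Levels are CPM (counts over the library total) or CPM per kb of the deposited width, as mean ± SD. Tests used edgeR 4.0.16 in R 4.3.3 on all genes kept by filterByExpr (count minimum 10, total minimum 15), with TMM scaling and robust quasi-likelihood F tests of the groups compared. Benjamini-Hochberg adjustment ran over every gene tested (threshold 0.05), and only the 58 genes were read out. The SE is the log2 change over the square root of F. Knockout was set against control in oocytes (6 libraries) and embryos (5), followed by the difference of these (11), and embryo against oocyte in control (6) and knockout (5) females. The oocyte and embryo genotype comparisons share no libraries. Alternatives were RLE size factors, no low-count filter, at least 1 CPM in 2 libraries, DESeq2 1.42.0, limma-voom 3.58.1, the replicate number as a block, 1 fit of all 11 libraries, and leaving out each library in turn. Spans of partner levels were also taken per kb of merged GENCODE exons, an alternative added after seeing the data. The scripts were tested on simulated counts.

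The 58 genes, the further pathway and marker lists and the rule for named genes were chosen with earlier results of these data known. Genes named with values are the 8 and the 5 with the smallest p between embryo and oocyte genotypes, the 5 largest rises and 5 largest falls in control embryos, the gene of highest mean CPM and the most changed gene of each role, the 5 with the largest genotype difference of the stage change, and the 2 largest rises and falls of each further list. Other genes were named after their values were seen. Overlaps with other genes were read from GENCODE M21 on GRCm38.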

Additional observations from a re-analysis of the deposited data

How the results depend on the processing

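For the 58 genes, 0 calls between genotypes were made in oocytes, in embryos or in the difference of the stages under any alternative. Stage calls in control libraries numbered 41 to 43 rises and 8 to 11 falls; 41 of 43 rises were called under all 13 alternatives (Heatr1 and Polr1a were not), and all 8 falls were. In knockout libraries they numbered 38 to 44 rises and 10 to 12 falls, with 38 of 40 rises (not Lyar and Nop56) and 10 of 11 falls (not Wdr75) called under all 12. Median log2 changes moved with RLE size factors and DESeq2, to 1.31 in control and 1.18 in knockout libraries under each. With each library left out, they ranged from 1.04 to 1.13 for the stage change in knockout, from -0.247 to -0.0598 between embryo genotypes and from -0.241 to -0.0871 for the difference between stages. The cause was not tested.

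Counts over all genes moved more. Between oocyte genotypes, higher and lower calls were 130 and 53 with no low-count filter, 153 and 70 with DESeq2, 18 and 4 with all libraries in 1 fit, and 16 to 117 and 4 to 40 with a library left out. Between embryo genotypes they were 30 and 2 with no filter, 9 and 1 with DESeq2, 12 and 1 in 1 fit, and 0 to 5 and 0 to 4 with a library left out. With the replicate number as a block, the oocyte comparison had 78 higher and 32 lower calls, the embryo comparison 1 higher and 1 lower, and the 58 genes 0 calls between genotypes. Whether the replicate numbers mark a batch is not stated in the sources used here. Deviations from group means of same-numbered oocyte libraries correlated at -0.16, 0.15 and 0.05, and those of embryo libraries at -0.14 and -0.05. With 2 maternal knockout embryo libraries, the deviations from their mean mirror each other. The embryo correlations therefore cannot show whether a batch was shared. Only 2 maternal knockout embryo libraries limit what the embryo comparison can detect.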
